A study of Rattus norvegicus with 8 samples.

Results

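Interferon-stimulated genes are the transcripts that cells raise when an interferon, a cytokine of the antiviral response, binds its receptor. The 35 genes described here were named as a list, by symbol, and found by matching those symbols to the gene names printed on the array. Of the 35, 34 had a probe on the array and 33 gave a signal that could be used, among 17361 genes measured in all. Xaf1, which promotes cell death, had no spot. Ifit1, which binds foreign RNA ends, was well above background on 0 of 8 arrays and was left out.

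The signals came from whole pituitary tissue of lactating Wistar rats on postpartum day 7. The TCDD group held 4 mothers given the dioxin TCDD, a strong agonist of the aryl hydrocarbon receptor (AhR), and the control group held 4 mothers labelled only as control. The sources used here give no dose, no vehicle and no exposure day. They say no more about sampling than 4 rats per group, so p-values reflect only the variation among these 8 samples. The question is whether interferon-stimulated transcripts differed in the maternal pituitary after dioxin exposure.

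In textbook outline, type I interferons act through the kinases Jak1 and Tyk2 on Stat2, which joins Irf9 in a complex that binds the interferon-stimulated response element (ISRE) in promoters. Interferon gamma acts through Jak1 and Jak2, and its response runs through a gamma-activated site (GAS). The induced proteins sense viral RNA, block its translation, degrade it, or stop virus entry and release. Many are also expressed at a basal level without infection, in immune cells and in tissue cells. In a bulk sample, fewer cells of a type and less RNA per cell cannot be told apart.

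The TCDD arrays shared slide 2 and the control arrays slide 1, and for that reason a slide effect and a group effect cannot be told apart here. Each array's 75th percentile of signal was 765 to 932, with 71.1% to 73.9% of its spots well above background. Signals are log2 values relative to that percentile, which is set to 0 on each array. They are not compared between genes, since probes differ in brightness. The dioxin-induced enzyme Cyp1a1 served as the check of exposure: its signal after TCDD was at least 7.28 times the control signal (limma adjusted p = 0.028), a lower bound because 0 of 4 control arrays had it well above background. All 7 hormone genes used as markers of pituitary tissue were measured.

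No member passed the test between the groups. Of the 33 measured members, 0 had an adjusted p under 0.05 in limma (lowest adjusted p = 0.409), beside 0.0806% of all genes. At an unadjusted p under 0.05 there were 4 members, 3 of them with a lower mean on the TCDD arrays and 1 with a higher mean. Over all genes 10.7% passed that unadjusted threshold, 2.95% with a lower and 7.76% with a higher mean. By sign alone, 25 members had a lower mean on the TCDD arrays and 8 a higher one, where 43.6% of all genes had a lower mean and 56.4% a higher one. The groups did not overlap for 3 members, where 7.1% of all genes had no overlap. The median difference in log2 signal, TCDD minus control, was -0.08 over the members and 0.02 over all genes. For 22 of 33 members the 95% interval of the difference stayed within 0.5 on the log2 scale in either direction. Without the TCDD 2 array, 20 of the 33 had a lower mean.

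**Figure D1:**
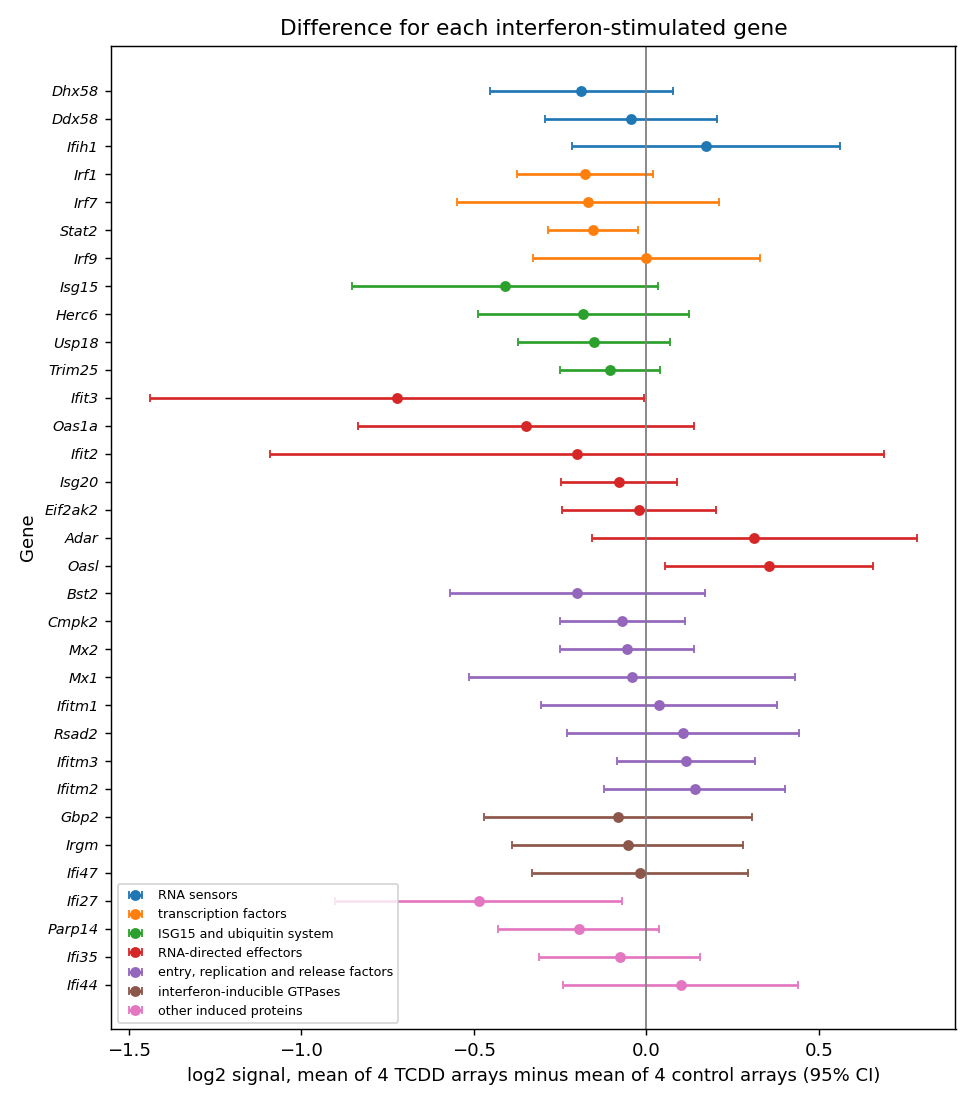
Difference in log2 signal between the means of 4 TCDD and 4 control arrays for each of the 33 measured members, with its 95% interval from limma, coloured by role. Points left of 0 have a lower mean on the TCDD arrays (25 genes), and the interval leaves out 0 for Ifit3, Ifi27 and Stat2 on that side and for Oasl on the other.

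Promoter windows of the members were searched for letters of elements that interferon and AhR signalling use. RefSeq promoters of the GRCr8 assembly, from 250 bases before to 50 after the start, were at hand for 26 of the 35 names, and those of Ifit1, Ifit2, Mx2, Isg15, Usp18, Ddx58, Dhx58, Ifitm1 and Adar were not matched. The ISRE core searched was GAAANNGAAA, on either strand. It occurred in 16 of the 26 member promoters (61.5%), against 3.92% of 33469 promoters of the same length. The GAS letters TTCNNNGAA occurred in 8 members (30.8%), against 8.87% of all promoters. The core of the AhR response element, GCGTG on either strand, occurred in 6 members (23.1%), against 29.7% of all promoters. Herc6 and Irf9 varied together with Oas1a, Irf7, Gbp2 and Irgm between rats, but their promoters held no ISRE core and are not shown. The 7 stretches below belong to members with an ISRE core that the results turn on: Ifit3 and Ifi27 had the largest differences toward a lower mean, Oas1a, Irf7, Gbp2 and Irgm varied together between rats, and Rsad2 varied the opposite way. Each is written 5′ to 3′ along the strand of its gene, with matches to the ISRE core, in either orientation, in capitals.
Ifit3: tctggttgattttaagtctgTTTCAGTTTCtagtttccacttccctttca
Ifi27: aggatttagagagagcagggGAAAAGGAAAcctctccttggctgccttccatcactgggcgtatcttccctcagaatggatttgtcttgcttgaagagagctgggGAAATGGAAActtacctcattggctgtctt
Oas1a: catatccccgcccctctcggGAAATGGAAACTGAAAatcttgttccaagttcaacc
Irf7: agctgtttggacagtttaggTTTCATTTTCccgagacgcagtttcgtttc
Gbp2: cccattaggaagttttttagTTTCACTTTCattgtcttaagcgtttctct
Irgm: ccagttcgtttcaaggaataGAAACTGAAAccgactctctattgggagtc
Rsad2: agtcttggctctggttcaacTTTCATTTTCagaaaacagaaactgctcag
On GRCr8 these stretches lie at chr1:241527262-241527311 (plus strand) for Ifit3, chr6:128355123-128355257 (plus) for Ifi27, chr12:41330405-41330460 (plus) for Oas1a, chr1:205800063-205800112 (minus) for Irf7, chr2:234005676-234005725 (plus) for Gbp2, chr10:33742583-33742632 (minus) for Irgm and chr6:48788238-48788287 (minus) for Rsad2. Oas1a and Bst2 each held 2 overlapping matches to the ISRE core, and in Bst2 a GAS match also overlapped the upstream of these. Ifi27 held 2 matches apart from each other, 169 and 84 bases upstream of the start. Of the 25 measured members with a promoter entry, the 15 with an ISRE core had a median difference of -0.08 and the 10 without had one of -0.07. The mean was lower on the TCDD arrays for 10 of the 15 with an ISRE core and for 9 of the 10 without. All 6 members with the AhR core (Ifit3, Irf1, Stat2, Bst2, Eif2ak2 and Cmpk2) were among those with a lower mean, Eif2ak2 only on its brighter probe, as were 13 of the 19 without it. A match is only a match of letters.

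RNA sensors came first by role. Ddx58, which encodes RIG-I, and Ifih1, which encodes MDA5, detect viral RNA and signal through Mavs, and Dhx58 encodes their regulator LGP2. Their differences were -0.04 (SE 0.11) for Ddx58, 0.17 (SE 0.17) for Ifih1 and -0.19 (SE 0.12) for Dhx58. The Ifih1 difference was 0.014 without control 4, and that of Dhx58 was -0.09 without TCDD 2 and -0.05 after normexp correction with quantile normalization. Ifih1 was well above background on 4 TCDD and 3 control arrays, and the other 32 measured members on all 8 arrays. The values of all 3 sensors overlapped between the groups.

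All 4 transcription factors had a lower mean on the TCDD arrays, with a median difference of -0.16, but the Irf9 difference was only -0.0002. Stat2, which joins Irf9 in the interferon complex, read 0.13, 0.11, 0.20 and 0.11 on the TCDD arrays, against 0.36, 0.28, 0.31 and 0.22 on the control arrays. Every TCDD value lay below every control value, although the gap between the nearest values was small. The difference was -0.15 (SE 0.06, limma adjusted p = 0.41), a 1.11-fold lower signal. An exact permutation test over the 70 assignments gives p = 0.029 for any gene whose groups do not overlap. For such genes it only restates the separation. Groups failed to overlap in this direction for 1.91% of all genes. The Stat2 probe lies on chromosome 7 from 1580592 to 1580651 (rn4).

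Irf1, a factor induced most by interferon gamma, had a difference of -0.18 (SE 0.09), and its other probe gave -0.20. Irf7, the amplifier of interferon alpha production, had one of -0.17 (SE 0.16), which was -0.07 without TCDD 2 and -0.33 without TCDD 3. Irf9, which gives the interferon complex its contact with DNA, averaged -2.53 ± 0.17 on the TCDD arrays and -2.53 ± 0.27 on the control arrays (SD, n = 4 each). These 3 factors overlapped between the groups.

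The ISG15 system attaches the small protein Isg15 to other proteins. Isg15 itself read -0.90, -1.14, -0.41 and -1.25 on the TCDD arrays, against -0.55, -0.49, -0.79 and -0.24 on the control arrays. TCDD 3 lay among the controls and the other TCDD arrays lay below all of them. The difference of -0.41 (SE 0.19) did not pass (limma adjusted p = 0.51). Herc6, the main ligase for Isg15 in mice, differed by -0.18 (SE 0.13), and by -0.11 without TCDD 2 or -0.29 without control 3. Usp18, which removes Isg15 and restrains the receptor, differed by -0.15 (SE 0.10), by -0.09 on its other probe and by -0.09 without control 2. Trim25, a ubiquitin ligase that activates RIG-I, read -0.31, -0.33, -0.31 and -0.35 on the TCDD arrays, against -0.28, -0.22, -0.30 and -0.09 on the control arrays. Its groups did not overlap, but TCDD 1 and control 3 nearly touched. The Trim25 difference was -0.11 (SE 0.06, limma adjusted p = 0.61), and it was -0.06 without the control 4 array. The Trim25 probe lies on chromosome 10 from 77488215 to 77488274 (rn4).

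The effectors that act on RNA held Ifit2 and Ifit3, which had the widest ranges over the 8 arrays, and Isg20, which was among the narrowest. Ifit2 and Ifit3 were dim, with lowest readings of -5.69 and -5.65. The lowest level well above background lay between -6.44 and -6.03, depending on the array. Ifit3, a protein that works in a complex with other Ifit proteins on viral RNA, read -5.54, -5.65, -4.69 and -5.14 on the TCDD arrays, against -4.21, -5.21, -3.94 and -4.75 on the control arrays. Control 2 and control 4 lay among the TCDD values, and TCDD 3 and TCDD 4 lay among the controls. The difference of -0.72 (SE 0.31), a 1.65-fold lower signal, had an adjusted p of 0.46 in limma and was -0.18 after normexp background correction with quantile normalization. The Ifit3 probe lies on chromosome 1 from 238575730 to 238575789 (rn4).

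Ifit2, its neighbour 10.6 kb away, promotes cell death as well as binding RNA. It read -5.69, -4.86, -4.78 and -4.89 on the TCDD arrays, against -5.09, -5.24, -5.39 and -3.69 on the control arrays. TCDD 1 was the lowest array and control 4 the highest, and the rest were mixed. The difference was -0.20 (SE 0.39) with all arrays and 0.19 without control 4. The Ifit2 probe lies on chromosome 1 from 238565078 to 238565137 (rn4).

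Oasl had the largest difference toward a higher mean. It belongs to the oligoadenylate synthetase family, and the human protein enhances RIG-I signalling without making oligoadenylate. It read -4.07, -4.06, -4.05 and -4.03 on the TCDD arrays, against -4.82, -4.31, -4.32 and -4.18 on the control arrays. Every TCDD value lay above every control value, the TCDD values were almost equal, and control 1 stood lowest. The difference was 0.35 (SE 0.13, limma adjusted p = 0.41), a 1.28-fold higher signal, where 5.19% of all genes had such a separation. It was 0.22 without control 1 and 0.13 after normexp correction with quantile normalization. The Oasl probe lies on chromosome 12 from 42958314 to 42959155 (rn4).

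Oas1a, which makes the oligoadenylate that activates the nuclease RNase L, had a difference of -0.35 (SE 0.21), and -0.21 without TCDD 2 or after normexp correction with quantile normalization. Adar, which edits adenosine to inosine in double-stranded RNA, had one of 0.31 (SE 0.20), 0.15 without control 2 and 0.04 after that normexp correction. Isg20, an exonuclease, read 0.29, 0.16, 0.20 and 0.23 on the TCDD arrays, against 0.38, 0.18, 0.22 and 0.42 on the control arrays. Its values spanned only 0.26 over the 8 arrays and overlapped, with a difference of -0.08 (SE 0.07). Eif2ak2, the kinase PKR that halts translation, read -2.30, -2.59, -2.50 and -2.48 on the TCDD arrays, against -2.30, -2.40, -2.42 and -2.66 on the control arrays. These values were mixed between the groups, and its probes gave differences of -0.02 and 0.05, of opposite sign. The Isg20 probe lies on chromosome 1 from 134637559 to 134637618 (rn4).

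**Figure D2:**
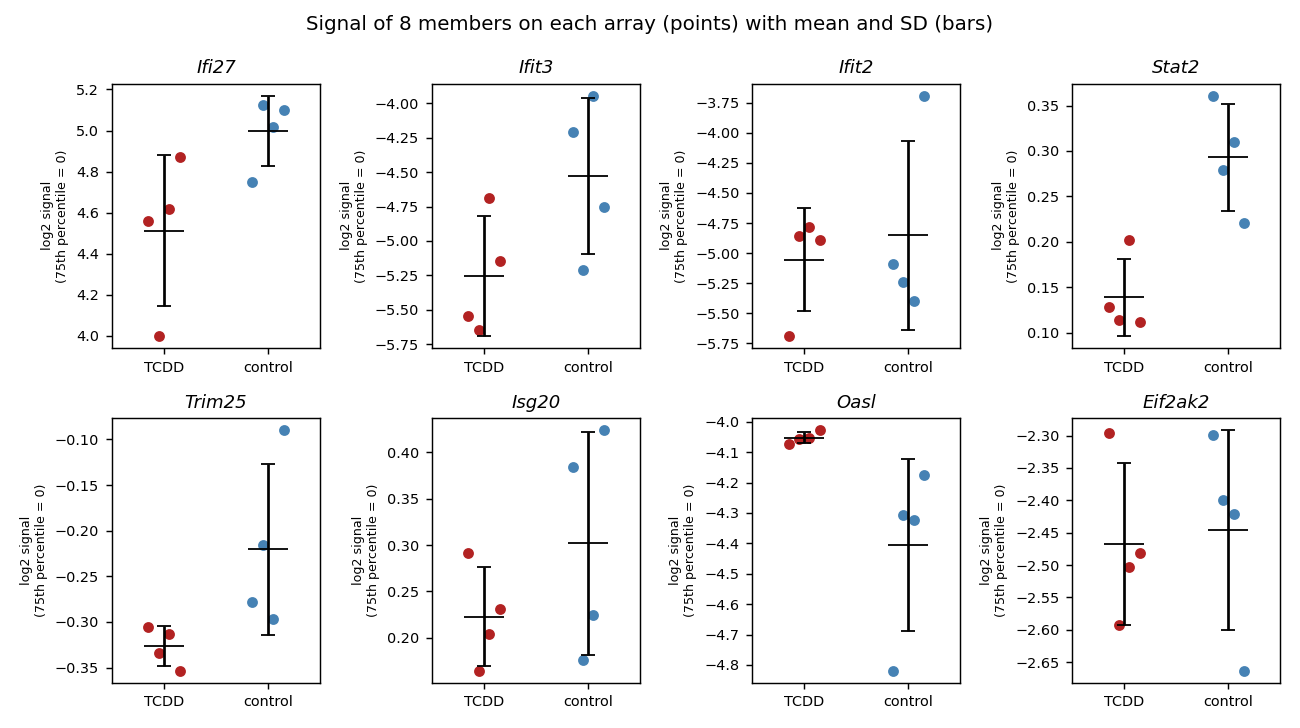
Log2 signal relative to the array's 75th percentile on each array for 8 members, with points for arrays and bars for mean and SD (n = 4 each). Each panel has its own vertical scale, so panels are not comparable in height. The groups do not overlap for Stat2, Trim25 and Oasl.

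Factors that block entry, replication or release were divided, 4 with a lower and 4 with a higher mean, and their median difference was -0.0032. Mx1 and Mx2, dynamin-like GTPases that trap viral particles, had differences of -0.04 (SE 0.21) and -0.06 (SE 0.08). Rsad2, or viperin, which makes a chain-terminating nucleotide, had one of 0.11 (SE 0.15), and Cmpk2, a nucleotide kinase beside it, one of -0.07 (SE 0.08). Bst2, or tetherin, which holds budding virus at the cell surface, had a difference of -0.20 (SE 0.16), which was -0.08 without TCDD 4, -0.31 without TCDD 3 and -0.13 without control 4. Ifitm1, Ifitm2 and Ifitm3, membrane proteins that hinder virus fusion, had differences of 0.04, 0.14 and 0.12. That of Ifitm2 was 0.06 without control 4, and that of Ifitm3 was 0.05 without control 3. The values of all 8 overlapped between the groups.

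The interferon-inducible GTPases Gbp2, Irgm and Ifi47, known in mice to act on vacuoles that hold microbes, differed by -0.08, -0.05 and -0.02. Among other induced proteins, Ifi27, a mitochondrial protein, read 4.56, 4.00, 4.62 and 4.87 on the TCDD arrays, against 4.75, 5.12, 5.02 and 5.10 on the control arrays. TCDD 2 was far the lowest, and TCDD 4 lay above control 1. The difference of -0.49 (SE 0.18), a 1.40-fold lower signal, did not pass (limma adjusted p = 0.41, exact permutation p = 0.057) and was -0.32 without TCDD 2. Its probe lies on chromosome 6 from 127731604 to 127731663 (rn4). Parp14, an ADP-ribosyltransferase, differed by -0.20 (SE 0.10), by -0.01 on its other probe and by -0.13 without TCDD 2. Ifi35 and Ifi44 differed by -0.08 (SE 0.10) and 0.10 (SE 0.15).

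The spread between rats of a group was of the same order as the difference between the groups. Averaged over the 33 members, with each gene taken relative to its mean of 8 arrays, the TCDD arrays read -0.06, -0.17, 0.10 and -0.05, and the control arrays 0.08, 0.05, -0.05 and 0.10. TCDD 3 was the highest of all arrays, just above control 4, and TCDD 2 the lowest, so the groups overlapped. The group means were -0.04 ± 0.11 for TCDD and 0.04 ± 0.07 for control (SD, n = 4 each), a difference of -0.09. It was -0.05 without TCDD 2 and -0.14 without TCDD 3. Averaged over all genes in the same way, TCDD 3 was also the highest array (0.04), control 4 was the lowest (-0.02), and the difference was 0.03. The members' averages were not adjusted for these shifts, which are larger than the gap between TCDD 3 and control 4. TCDD 2 held the lowest value of 13 of the 33 members, TCDD 4 that of 9 and TCDD 3 that of 0. The median SD within a group was 0.21 for the members and 0.15 for all genes.

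**Figure D3:**
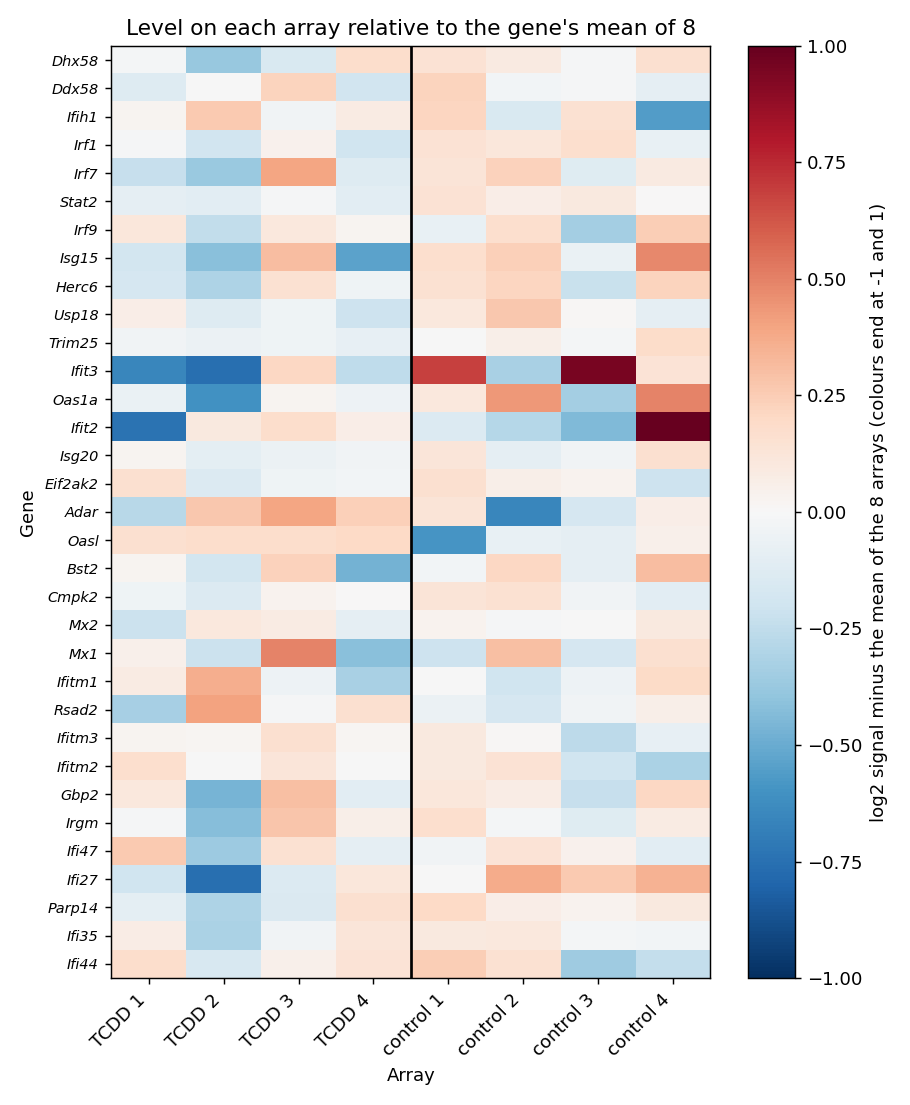
Log2 signal of each member on each array minus that gene's mean of 8 arrays, TCDD arrays left of the line and control arrays right, genes ordered by role. TCDD 2 is blue for 25 of 33 members and control 3 for 24. TCDD 3 is red for 21 members, control 1 for 23, control 2 for 22 and control 4 for 22. Colours end at -1 and 1.

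Among the roles, the GTPases had the widest spread on the TCDD arrays. Their mean read 0.12, -0.42, 0.24 and -0.05 on the TCDD arrays, against 0.08, 0.06, -0.10 and 0.06 on the control arrays. TCDD 2 and TCDD 3 were thus the extremes of the whole set, and the control arrays lay between them.

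Members tended to vary together within the groups. Over the 528 pairs of members, the median Pearson r of the deviations from the group means on 8 arrays was 0.18, and it was 0.005 over all pairs of genes. It was 0.12 without TCDD 2, 0.11 without TCDD 3, and 0.12 with median centring. Pairs with a positive r made up 64.4% among members and 50.4% among all genes. Within the 4 TCDD arrays the median r was 0.33, and within the 4 control arrays 0.16. These are descriptions, since the arrays of a group share a slide and the pairs share the same few arrays.

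The shared pattern ran through some members more than others. Gbp2 had an r of 0.93 with the mean of the other members, Irgm 0.91, Herc6 0.91, Irf7 0.90 and Isg15 0.82. Ifih1, Rsad2 and Ifitm1 ran the opposite way, with an r of -0.58, -0.42 and -0.36. The closest pair was Irf9 and Oas1a, with an r of 0.98, followed by Dhx58 and Parp14, and Mx1 and Bst2, at 0.94 each. The farthest apart were Rsad2 and Ifi47, at -0.95.

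Closeness in family or on the chromosome did not go with closeness in pattern for several pairs. Ifit2 and Ifit3 had an r of -0.06, Mx1 and Mx2 of 0.20, and Oas1a and Oasl of 0.21. Rsad2 and Cmpk2, whose probes lie 38.4 kb apart, had an r of -0.46. Ifitm2 and Ifitm3 had one of 0.66, and Irgm and Ifi47 one of 0.58. Stat2 and Irf9, partners in the interferon complex, had an r of -0.30. That pair had an r of 0.50 within the TCDD arrays and -0.66 within the control arrays. In the same order, Irgm and Ifi47 had 0.77 and -0.63, and Ifit2 and Ifit3 had 0.50 and -0.29. For these pairs the r over all arrays joins opposite signs, so it does not describe either group. The other pairs named here had the same sign within each group.

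**Figure D4:**
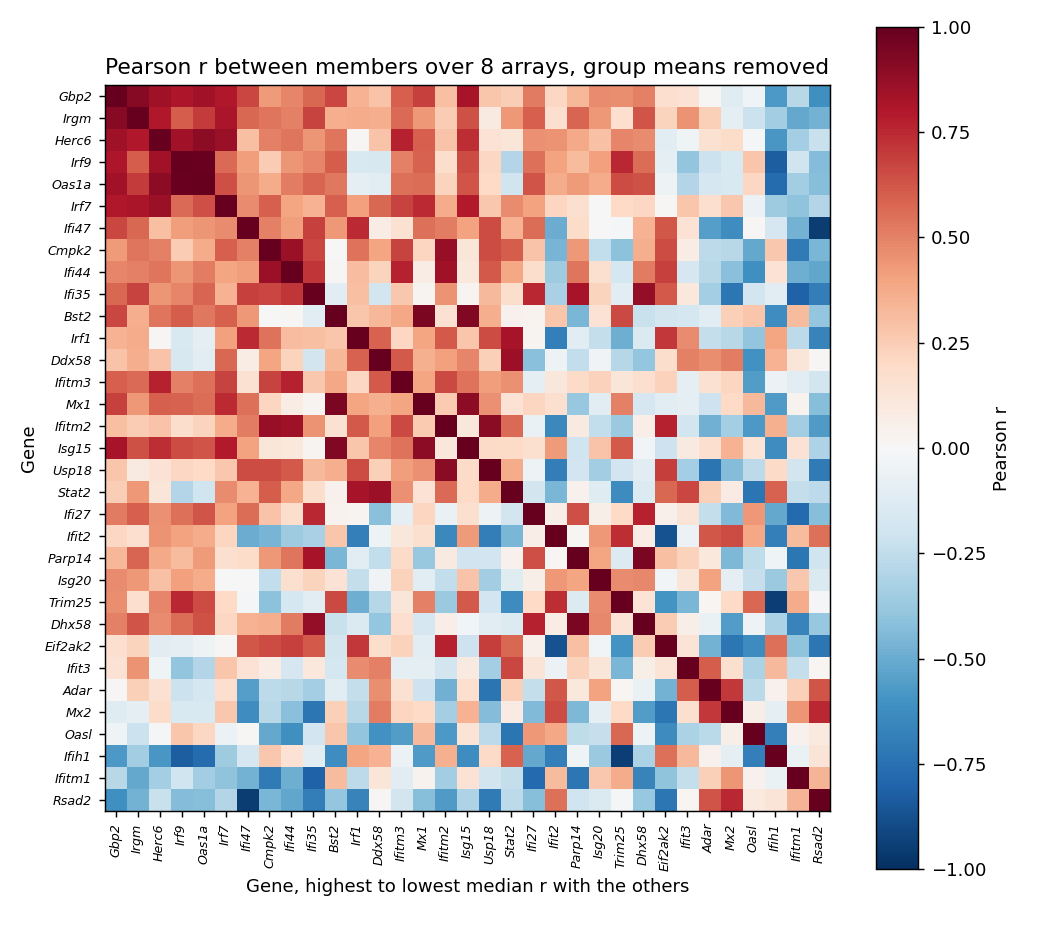
Pearson r between members over 8 arrays after the group means were removed, genes ordered from the highest to the lowest median r with the other members. The red block at the upper left holds Gbp2, Irgm, Herc6, Irf9, Oas1a and Irf7, and Ifih1, Ifitm1 and Rsad2 at the lower right run against it.

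Apart from the members, 12428 named genes were compared with the mean pattern of the members over the same 8 arrays. They included 58 genes of a wider list of interferon-induced genes, described below, and 2 of these 58 were among the 100 most alike. The 10 most alike were Fan1 (r = 0.97), RT1-S2 (0.97), Lgals3 (0.96), Ncf1 (0.96), Icam1 (0.95), Zfp64 (0.95), Aplf (0.94), Vip (0.94), Oplah (0.94) and Tesk2 (0.93). With so many genes and 8 arrays, such values are a description only.

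No gene of the signalling chain upstream of the members passed. Of 58 pathway genes listed, 31 were measured, 12 with a higher and 19 with a lower mean, and 0 had an adjusted p under 0.05 (limma, lowest 0.42), with 3 at an unadjusted p under 0.05. Over all genes 43.6% had a lower mean and 10.7% such an unadjusted p. Of the ligands only Ifna4 and Il15 were measured, at differences of 0.09 (SE 0.06) and -0.20 (SE 0.18). The receptor chains Ifnar1, Ifngr1, Ifngr2 and Il10rb differed by -0.12, -0.02, 0.04 and 0.01. The kinases Jak1 and Jak2 differed by 0.06 and -0.02.

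Tlr3, a sensor of double-stranded RNA in endosomes, read -3.62, -4.21, -3.65 and -3.84 on the TCDD arrays, against -3.52, -3.52, -3.58 and -2.81 on the control arrays. The groups did not overlap, though TCDD 1 lay next to control 3 and control 4 stood highest. The difference was -0.47 (SE 0.20, limma adjusted p = 0.46), where 1.91% of all genes had such a separation. It was -0.29 without control 4 and -0.30 after normexp correction with quantile normalization. Pias4 and Pias2, which restrain Stat proteins, differed by -0.17 (SE 0.06) and 0.18 (SE 0.07) and overlapped between the groups.

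A wider list of 94 interferon-induced genes had 59 measured, 20 with a higher and 39 with a lower mean, and a median difference of -0.07. Of these, 0 passed (limma, lowest adjusted p = 0.31), and 7 had an unadjusted p under 0.05, as did 10.7% of all genes. Rtp4, a chaperone of membrane receptors, read -1.46, -1.71, -1.36 and -1.56 on the TCDD arrays, against -1.21, -1.20, -1.31 and -1.17 on the control arrays. Tapbp, which loads peptides on MHC class I, read 0.64, 0.96, 1.03 and 0.87 on the TCDD arrays, against 1.18, 1.08, 1.18 and 1.25 on the control arrays. Both genes were lower on every TCDD array than on any control array, where 1.91% of all genes had such a separation. Their differences were -0.30 (SE 0.08) for Rtp4 and -0.30 (SE 0.09) for Tapbp. The peptide transporter subunit Tap2, the chemokine Ccl5, Tmem140 and Uba7, the activating enzyme for Isg15, differed by -0.33, -0.55, -0.39 and -0.35, with -0.33 for Ccl5 without control 4. Trim30 was the gene of this list with a higher mean at that threshold, at 0.91 (SE 0.36), or 0.31 after normexp correction with quantile normalization, and all 5 overlapped between the groups. The Trim30 signal was dim, well above background on 4 TCDD and 3 control arrays. On control 3 it read -6.41, below the lowest level well above background on that array, -6.27.

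Markers of other cell types also varied between arrays. Of 22 leukocyte markers 12 were measured, 5 with a higher and 7 with a lower mean, and a median difference of -0.05. Of these 12, only 1, the integrin subunit Itgb7, passed, with a lower mean. The average of the 12 read 0.07, -0.15, 0.11 and -0.13 on the TCDD arrays, against 0.06, 0.07, -0.03 and 0.00 on the control arrays. The B and T cell markers Cd79a, Ms4a1, Cd3e and Cd8a were not well above background on enough arrays. TCDD 2 was low and TCDD 3 high in this list as in the members. Of 4 markers of plasmacytoid dendritic cells, which make much type I interferon, Siglech and Irf8 were not measurable, and Tcf4 and Bst2, itself a member, had a lower mean and did not pass. The average of these 2 read -0.16, -0.10, 0.14 and -0.30 on the TCDD arrays, against 0.01, 0.14, 0.08 and 0.19 on the control arrays, and the groups overlapped. Erythrocyte markers, 5 measured with 0 passing, all had a higher mean. Their average read -0.02, 0.68, 0.55 and 0.57 on the TCDD arrays, against -0.64, -0.71, -0.66 and 0.24 on the control arrays. The average of posterior lobe and neural markers read -0.11, -0.60, -0.14 and -0.19 on the TCDD arrays, against 0.22, 0.63, 0.72 and -0.52 on the control arrays. Control 4 thus lay apart from the other control arrays in both lists. The part of these markers in the members' values was not tested.

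**Figure D5:**
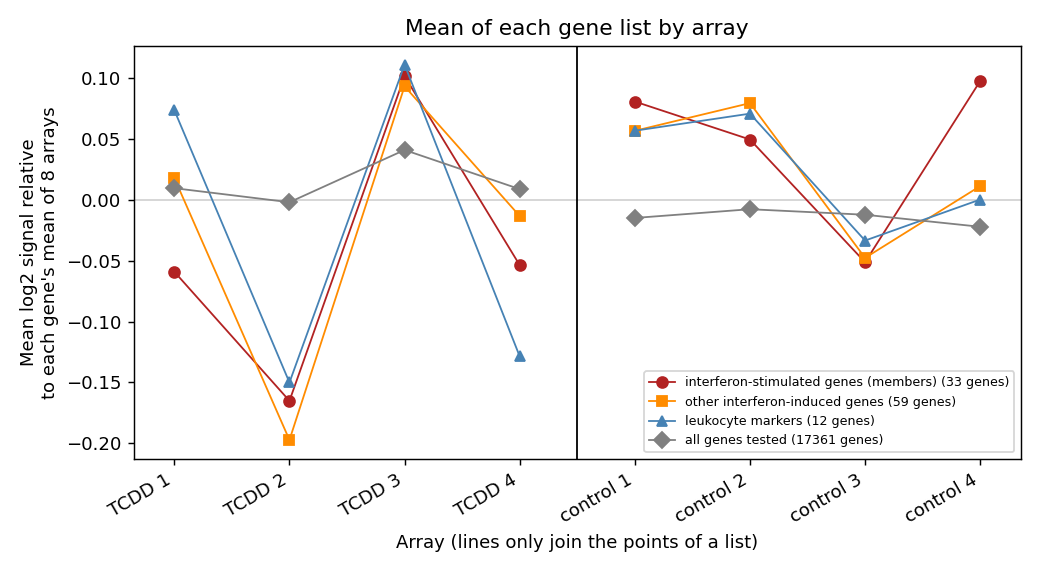
Mean log2 signal of gene lists on each array, relative to each gene's mean of 8 arrays, TCDD arrays left and control arrays right. The members, the wider list of interferon-induced genes and the leukocyte markers are lowest on TCDD 2 and highest on TCDD 3, and the members are nearly as high on control 4 (0.10).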

How the data were processed

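Cy3-labelled RNA of each pituitary was read on 1 single-colour Agilent array. Per the file headers, the authors' scans were read by Feature Extraction 10.7.1.1, and the deposited linear intensities are background-subtracted processed signals; probe positions use rn4. A deposited table of intensities for the same arrays, with a median of 56.3 in every column and a shared distribution, served as an alternative; how it was made is not given in the sources used here. Log2 of the processed signal was computed from the deposited intensities minus each array's 75th percentile. Outlier spots were set to missing and spots averaged per probe. A probe was kept if well above background on 4 or more arrays with at least 3 values per group, and a gene took its brightest kept probe. Of 30367 probes, 17361 genes remained. Groups were compared with limma 3.58.1 in R 4.3.3 (two-sided, Benjamini-Hochberg over all genes, threshold 0.05), after a test on simulated data. Members and lists were chosen with earlier results of these data known. Members named with array values were those without overlap, with an unadjusted p under 0.05, with the 3 widest or 3 narrowest ranges, or with probes of opposite sign; Isg15 was added after its values were seen. Alternatives covered background correction, scaling, the filter, the probe rule, names, outlier spots, array weights, a variance trend, the replicate block and each array left out. The number of arrays limits the precision. Some genes of the lists are not reported here.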

Additional observations from a re-analysis of the deposited data

Results flagged for a closer look

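Among 68 groups of 4 arrays (33 members and their mean, in TCDD and in control), 4 had a highest or lowest array whose gap to the nearest array, as a share of the group's range, was past Dixon's 95% limit, where chance gives about 5%. Ifit2 on the TCDD arrays had a gap of 0.880 of the range, with TCDD 1 at -5.69 below the others at -4.89 to -4.78. Oas1a on the TCDD arrays had 0.858, with TCDD 2 at -4.40 below the others at -3.85 to -3.76. Ifitm3 on the TCDD arrays had 0.922, with TCDD 3 at 1.23 above the others, the lowest of which read 1.09. Herc6 on the control arrays had 0.832, with control 3 at -1.20 below the others at -0.83 to -0.76.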

How the results depend on the processing

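The members passing the threshold were 0 of those tested under every alternative run, with 2 to 7 at an unadjusted p under 0.05 (2 without TCDD 2 or without control 1, 7 with normexp correction or median centring), and the lowest adjusted p was 0.258. The median difference stayed between -0.13 and -0.06. An alternative chosen after seeing the data, the 20 members brighter than the median gene, gave -0.08. Updated gene names added no member. The count of all genes passing, 14, was 0 with normexp correction and quantile normalization, 1 with quantile normalization, 9 with median centring, 1 in the deposited table, 4 with a variance trend and 30 with array weights, and 0 to 11 with each array left out; the cause was not tested. Replicate numbers did not pair the arrays (r of deviations -0.02, -0.07, -0.03 and -0.10 for the same number), and with the replicate number as a block 0 genes passed and 0 members. Small differences turned sign: Ifit2 was 0.0035 and Irf9 0.0080 with array weights, Ifitm1 -0.0029 with median centring and Eif2ak2 0.016 with the mean of kept probes. With each array left out, Ifit2 ran from -0.38 to 0.19, Mx1 from -0.21 to 0.090, Mx2 from -0.10 to 0.0063, Irf9 from -0.11 to 0.083, Rsad2 from -0.0087 to 0.23, Ifi35 from -0.13 to 0.014, Ifi44 from -0.0012 to 0.20, Ifi47 from -0.11 to 0.10, Irgm from -0.16 to 0.080, Gbp2 from -0.20 to 0.059, Ddx58 from -0.13 to 0.021, Ifitm1 from -0.080 to 0.15 and Eif2ak2 from -0.094 to 0.027. The other 20 members kept their sign throughout. The 3 pathway genes and 7 wider-list genes at an unadjusted p under 0.05, run under the same alternatives as a choice made after seeing the data, also kept their sign.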
